A study of Mus musculus with 18 samples.

Results

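The 10 female libraries of the series were compared on their autosomal genes: 5 libraries from mice with both Smchd1 alleles deleted (del/del) against 5 from mice with 1 deleted allele (heterozygous). They are 10 of the 18 libraries in the series and were taken as the table of raw counts deposited for females, by the genotype in each column name. The other 8 libraries, from males, are used only to set values beside the female ones. All animals were C57BL/6 mice of 12 to 16 months, and both groups carried 1 copy of a Vav.Cre transgene, written Smchd1[del/+] Vav.Cre[T/+] and Smchd1[del/del] Vav.Cre[T/+] in the labels. Bone marrow cells sorted as CD45.2+ B220+ Mac1-, a gate for B cells, gave the polyA RNA. The model has limits set by its design. Vav drives Cre in blood-forming cells, the labels do not say which part of Smchd1 was deleted, and there was no library with 2 intact alleles or without Cre. Each library had its own animal number in the labels.

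SMCHD1 is a non-canonical member of the SMC protein family that binds chromatin. It is known for its part in keeping genes silent on the inactive X chromosome, in imprinted gene clusters and in the protocadherin clusters. Genes that a cell type has silenced for good, such as transcription factors of other tissues, are the kind of autosomal gene for which loss of such a protein can be read in RNA. B220+ marrow cells run from dividing pro-B and pre-B cells to recirculating mature B cells, and they share the gate with plasmacytoid dendritic cells.

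The start regions of 4 of the genes that rose are shown because these had the smallest p among called genes with an entry in the RefSeq promoter table. Each sequence holds the 250 bases before the annotated start on GRCm38.p6, read 5′ to 3′ on the gene's strand, with every CG in capitals since CG is the pair that DNA methylation marks. The motif searched was the letters CG, which read the same on both strands. Among the 8460 autosomal tested genes with such a window, 98.9% held at least 1 CG and the median was 16.
Prox1 (chr1:190170828-190171077, minus strand): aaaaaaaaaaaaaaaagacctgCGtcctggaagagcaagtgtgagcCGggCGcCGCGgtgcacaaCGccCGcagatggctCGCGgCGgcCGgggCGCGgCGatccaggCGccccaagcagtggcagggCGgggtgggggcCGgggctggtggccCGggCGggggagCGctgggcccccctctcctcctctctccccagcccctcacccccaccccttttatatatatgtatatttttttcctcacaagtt
Peg3 (chr7:6730420-6730669, minus strand): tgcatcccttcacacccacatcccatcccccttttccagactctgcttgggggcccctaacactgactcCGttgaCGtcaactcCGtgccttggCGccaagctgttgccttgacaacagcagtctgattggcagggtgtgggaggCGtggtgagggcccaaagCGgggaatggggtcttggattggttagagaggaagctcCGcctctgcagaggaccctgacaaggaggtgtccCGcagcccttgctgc
Peg12 (chr7:62464511-62464760, minus strand): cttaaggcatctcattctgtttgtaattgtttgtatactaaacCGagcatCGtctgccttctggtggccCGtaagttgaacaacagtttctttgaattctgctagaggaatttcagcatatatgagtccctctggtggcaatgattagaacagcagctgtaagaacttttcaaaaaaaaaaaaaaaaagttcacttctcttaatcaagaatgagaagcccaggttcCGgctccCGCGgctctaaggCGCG
Fzd10 (chr5:128600856-128601105, plus strand): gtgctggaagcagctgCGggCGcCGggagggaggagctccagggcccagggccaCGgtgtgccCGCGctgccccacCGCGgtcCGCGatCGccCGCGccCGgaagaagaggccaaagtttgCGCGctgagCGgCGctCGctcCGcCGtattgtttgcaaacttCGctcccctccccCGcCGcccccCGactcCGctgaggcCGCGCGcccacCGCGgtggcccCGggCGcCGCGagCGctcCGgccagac
The counts of CG were 20 for Prox1, 8 for Peg3, 8 for Peg12 and 37 for Fzd10. As many or more were held by 35.4% of all windows in the case of Prox1, by 80.1% for Peg3 and Peg12, and by 4.13% for Fzd10. The 4 genes thus cover sparse and dense start regions. Only 26 of the 39 genes called higher, 66.7%, could be matched to a window, so a comparison of the whole set with other genes was void and is not given. Methylation was not measured here.

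Total counts ran from 11650350 to 29405395 per library, and the TMM scaling factors from 0.976 to 1.025. Levels are given as CPM, the count scaled to library size with these factors. Smchd1 itself (ENSMUSG00000024054, mm10 chromosome 17 from 71344489 to 71475343) was at 271, 235, 265, 240.1 and 240.2 CPM in heterozygous libraries 1 to 5 and at 140.3, 137.5, 130.2, 173.5 and 128.0 CPM in del/del libraries 1 to 5. The groups did not overlap, and del/del library 4 stood highest of its group. It fell by 0.82 on the log2 scale (SE 0.09, edgeR quasi-likelihood adjusted p = 0.000598). The remaining RNA covers the whole gene model, so it does not measure intact transcript. Markers of the labelled cell type were high. The 20 genes of the B identity list summed to between 15800 and 17800 CPM in heterozygous libraries and between 15800 and 17700 CPM in del/del ones, and 0 passed the test with edgeR (10 positive, 0 at an unadjusted p under 0.05, and 0 called with DESeq2 or voom).

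Loss of the remaining Smchd1 allele was followed by higher RNA of a small set of autosomal genes. Of 13068 autosomal genes tested, 39 rose (0.298%) and 1 fell (0.00765%), which was Smchd1, at an adjusted p under 0.05. In heterozygous libraries 26 of the 39 averaged under 1 CPM. At an unadjusted p under 0.05, 396 genes (3.03%) were higher and 159 (1.22%) lower. The median log2 fold change of all autosomal genes was -0.0057, with 48.3% positive, and TMM scaling by its construction places the bulk of genes near 0. All 39 genes that rose had every del/del library above every heterozygous one, a pattern that 0.796% of autosomal genes showed, and that 0.23% showed in the other direction. The call and this pattern come from the same 10 libraries, so the second adds no support to the first.

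Most genes that rose were low genes. The median log2 fold change of the 39 was 2.58 (range 0.65 to 8.05). A total of 31 rose at least 4-fold, 6 between 2-fold and 4-fold, and 2, Tspan17 and Ifi27l2a, less than 2-fold. In del/del libraries 25 had a del/del mean under 5 CPM and 10 reached 10 CPM. Per kilobase of exon, the median level was 0.103 CPM in heterozygous libraries and 0.525 CPM in del/del libraries, against 7.39 for all autosomal genes tested in either group. That median lay at percentile 1.8 of autosomal genes in heterozygous libraries and at percentile 10.3 in del/del libraries. Only 2 of the 39, Tspan17 and Ifi27l2a, lay above the autosomal median per kilobase in del/del libraries.

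**Figure D1:**
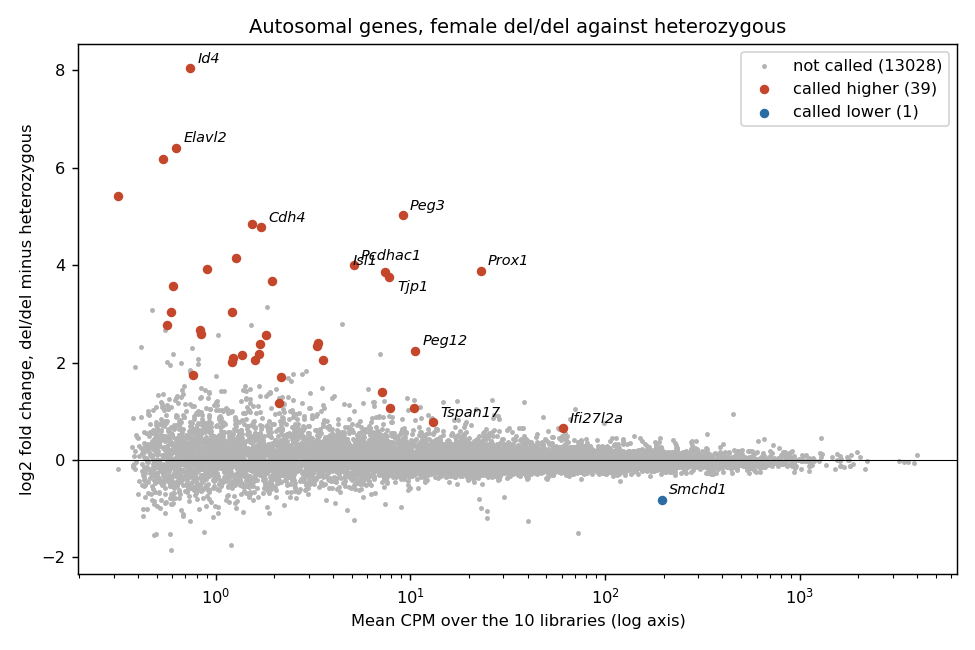
Log2 fold change (del/del minus heterozygous) of each of 13068 autosomal genes against its mean CPM over the 10 female libraries, on a log axis. The 39 genes called higher lie mostly at the low end, and Smchd1 is the only gene called lower.

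Where genes were grouped by their mean over all 10 libraries, which weights both genotypes alike, calls thinned out with level. The share called higher was 1.31% of the 761 genes at 0.5 to 1 CPM, 0.862% of the 1973 genes at 1 to 5 CPM, 0.354% of the 2543 genes at 5 to 20 CPM, 0.04% of the 5000 genes at 20 to 100 CPM and 0 of the 2658 genes over 100 CPM. The median SE of the log2 fold change fell over the same groups from 0.43 to 0.1. Genes low in heterozygous libraries could enter the lower groups through their del/del libraries alone. The cause of the fall in calls with level was not tested. The share of positive values was 56.1%, 60.7%, 54.8%, 43.2% and 39.9% in the same order. Below 0.5 CPM, 1 of 133 tested genes was called. A further 6970 of 24483 autosomal rows had 0 reads in all 10 libraries and could show nothing.

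Transcription factors of other tissues were among the genes that rose, and Prox1 had the smallest p of any autosomal gene. Prox1 (ENSMUSG00000010175, mm10 chromosome 1 from 190118038 to 190170680), the homeobox factor that specifies lymphatic endothelium, was at 3.03, 2.94, 3.86, 2.63 and 1.92 CPM in heterozygous libraries 1 to 5. In del/del libraries 1 to 5 it was at 47.9, 49.1, 36.2, 41.4 and 41.0 CPM. The lowest del/del library was 9.38 times the highest heterozygous one, and Prox1 rose by 3.88 on the log2 scale (SE 0.16, edgeR adjusted p = 6.83e-08). Other genes of lymphatic endothelium, listed after the calls were seen, were low or did not pass the test. Lyve1, Flt4, Pdpn, Sox18 and Nr2f2 were at or under 1 CPM in each of the 10 libraries, and Ccl21a had 0 reads in all of them. Reln was at 195 to 347 CPM in heterozygous and 256 to 401 CPM in del/del libraries (log2 0.37, SE 0.17, edgeR adjusted p = 0.976). Mmrn1 was at 9.41 to 28.4 CPM and 11.8 to 35.9 CPM (log2 -0.1, SE 0.33, adjusted p = 0.98). Of these 2 tested genes, 1 had an unadjusted p under 0.05 and 0 were called.

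Isl1 (ENSMUSG00000042258, mm10 chromosome 13 from 116298281 to 116309688), a LIM homeodomain factor of motor neurons and heart progenitors, was at 1.46, 1.21, 1.12, 0.559 and 0.341 CPM in heterozygous libraries. It was at 22.2, 13.5, 12.4, 14.3 and 7.46 CPM in del/del ones (log2 3.85, SE 0.36, adjusted p = 0.000189). The groups lay far apart, with library 1 the highest and library 5 the lowest of the del/del libraries. Esrrg (ENSMUSG00000026610, mm10 chromosome 1 from 187608791 to 188214885), an orphan nuclear receptor of oxidative metabolism, was at 0.174, 0, 0.203, 0 and 0 CPM in the heterozygous libraries and 3.92, 4.89, 2.47, 1.53 and 2.20 CPM in del/del ones (log2 4.85, SE 0.58, adjusted p = 0.000189). It went from almost no reads to a level that every del/del library showed. Id4 (chromosome 13), an inhibitor of basic helix-loop-helix factors, had 0 reads in the 5 heterozygous libraries together and 165 reads in the del/del ones, where it was at 1.03, 2.66, 0.696, 1.76 and 1.24 CPM. Taking 3 reads over the group as the limit that a count of 0 allows (0.027 CPM), it was at least 54.8-fold higher (adjusted p = 0.0388).

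The other transcription regulators that rose had smaller steps. Tbx15, a T-box factor of skeleton and muscle, rose to between 0.669 and 1.99 CPM from at most 0.279 CPM (log2 3.03, SE 0.49, adjusted p = 0.00557). Dmrt2, a DM-domain factor of the somites, rose from between 0.335 and 0.778 CPM to between 1.34 and 3.63 CPM (log2 2.38, SE 0.34). Lhx2, a LIM homeodomain factor of forebrain and hair follicle, rose from at most 0.610 CPM to at least 1.29 CPM (log2 2.01, SE 0.31). Tox3, an HMG-box protein, rose by 1.75 on the log2 scale (SE 0.33, adjusted p = 0.0449), and Phf21b, a PHD finger protein, by 1.17 (SE 0.22, adjusted p = 0.0466). Both of these calls stand close to the threshold and each was lost in 9 of the 10 fits that left out a library. The list of 126 autosomal developmental transcription factors puts this in proportion: 63 had 0 reads in all libraries, 21 were tested, and 5 of those rose (Prox1, Isl1, Tbx15, Dmrt2 and Lhx2) while 16 did not pass the test. The list median was 0.36 against -0.0057 for all autosomal genes, and 14 of 21 were positive. Among all autosomal genes tested, 0.298% rose and 48.3% were positive. Of the 5 list members that rose, Tbx15, Lhx2, Dmrt2 and Isl1 needed their del/del libraries to pass the count filter. The list values are therefore partly set by the filter. Hox genes, the other large family of this kind, gave 0 calls among 10 tested (10 positive, median 0.37, 2 at an unadjusted p under 0.05, and 0 with DESeq2 or voom). The Hox median was 0.19 without del/del library 3 and 0.14 with the level of Malat1, a nuclear noncoding RNA, as a covariate. Hoxc4 was highest among them by fold, at log2 2.18 (SE 0.67, adjusted p = 0.485).

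**Figure D2:**
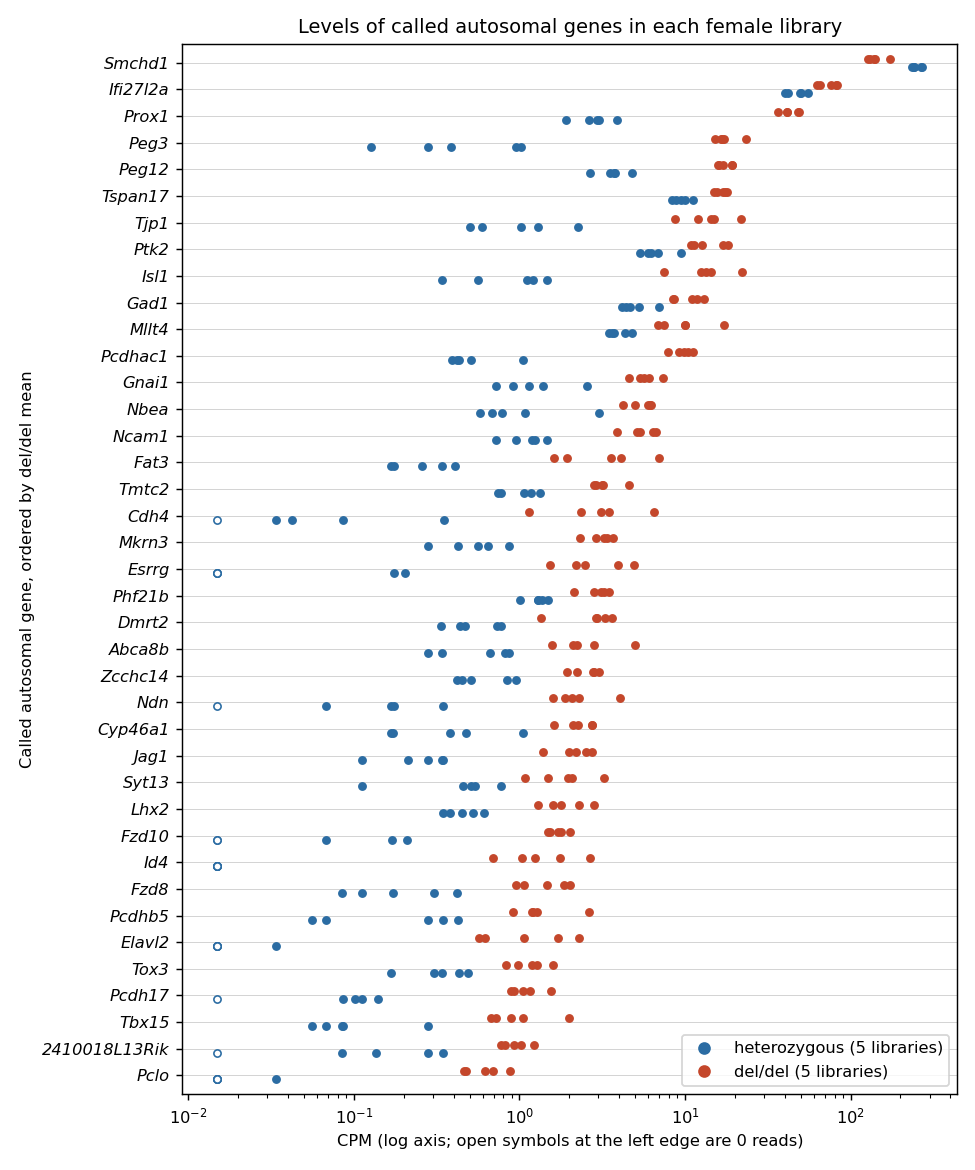
CPM of 39 of the 40 called autosomal genes in each of the 10 female libraries on a log axis, with genes ordered by del/del mean and 0 reads shown as open symbols at the left edge. In all genes shown but Smchd1 the 5 del/del libraries lie right of the 5 heterozygous ones, and Smchd1 lies the other way.

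Imprinted genes, which are expressed from 1 parental allele only, rose at 2 places on chromosome 7, and those tested elsewhere did not pass the test. Peg3 (ENSMUSG00000002265, mm10 chromosome 7 from 6703892 to 6730421), a paternally expressed zinc finger gene, was at 0.384, 0.951, 1.02, 0.279 and 0.128 CPM in heterozygous libraries and 16.6, 15.2, 17.1, 16.6 and 23.4 CPM in del/del ones. Its log2 fold change was 5.03 (SE 0.29, adjusted p = 1.79e-06), and the lowest del/del library was 14.9 times the highest heterozygous one. Its domain partners Usp29 and Zim1 had 0 reads. The second place is the Snrpn cluster, known from Prader-Willi syndrome. There Peg12 (ENSMUSG00000070526, mm10 chromosome 7 from 62461871 to 62464510), an intronless gene of the Frat family, was at 2.65, 3.54, 3.76, 3.74 and 4.77 CPM in heterozygous libraries and 19.3, 15.9, 17.04, 19.2 and 15.8 CPM in del/del ones (log2 2.24, SE 0.16, adjusted p = 9.71e-06). Each group kept within a narrow band. Mkrn3, a RING finger gene known as a brake on puberty, rose from between 0.279 and 0.864 CPM to between 2.32 and 3.65 CPM (log2 2.57, SE 0.28, adjusted p = 0.000493). Ndn, which encodes necdin of neurons, was at 0.174, 0.346, 0.0677, 0.168 and 0 CPM in heterozygous libraries and 4.03, 1.60, 2.09, 1.90 and 2.29 CPM in del/del ones (log2 4.15, SE 0.49, adjusted p = 0.000189). In the same cluster Atp10a was at log2 -0.14 (SE 0.14). Peg3, Ndn and Mkrn3 needed their del/del libraries to pass the count filter. The contrast with imprinted genes elsewhere is therefore partly set by the filter. Among all autosomal genes tested, 0.298% rose. Of 32 tested imprinted genes elsewhere, 0 were called with edgeR or voom and 1, Peg10, with DESeq2. At an unadjusted p under 0.05, 4 were higher and 1 lower, and the median was 0.033 (0.012 to 0.080 with 1 library left out). Peg10 was at log2 1.31 (SE 0.32, adjusted p = 0.212) and Grb10, which restrains growth factor signalling, at -1.06 (SE 0.30, adjusted p = 0.394).

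Adhesion genes were a further group among the calls. The row for Pcdhac1 (ENSMUSG00000007440, mm10 chromosome 18 from 36930285 to 37187657) spans the protocadherin alpha cluster, so its reads belong to the cluster and not to a single alpha gene. It was at 0.418, 0.432, 1.05, 0.391 and 0.511 CPM in heterozygous libraries and 9.81, 11.1, 7.85, 10.4 and 9.18 CPM in del/del ones (log2 4.0, SE 0.25, adjusted p = 2.54e-06). Heterozygous library 3 stood highest of its group and still lay 7.47 times below the lowest del/del library. Pcdhb5 of the neighbouring beta cluster rose as well (log2 2.66, SE 0.48, adjusted p = 0.0227), from at most 0.426 CPM to between 0.909 and 2.62 CPM. The beta genes Pcdhb19 and Pcdhb22 were at log2 1.33 (SE 0.42, adjusted p = 0.537) and, for the latter, 1.03 (SE 0.39, adjusted p = 0.926). Of 7 tested rows in the clusters, 2 rose, 6 were positive and the median was 1.03. Among all autosomal genes tested, 0.298% rose and 48.3% were positive. Both Pcdhac1 and Pcdhb5 needed their del/del libraries to pass the count filter, so the values for the clusters are partly set by the filter. Reads can be shared between such near-identical exons, so single beta genes are uncertain.

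Outside the clusters, 5 of 31 tested cadherin and adhesion genes rose, against 0.298% of all autosomal genes. Of these 5, Cdh4, Pcdh17 and Fat3 were at most at 0.349, 0.14 and 0.406 CPM in heterozygous libraries. They passed the count filter through their del/del libraries, so the share and the number of positive values are partly set by the filter. The list had 24 positive values, where 48.3% of all autosomal genes were positive, and a median of 0.32, which was 0.197 without del/del library 4 and 0.112 with the Malat1 covariate. Tjp1 (ENSMUSG00000030516, mm10 chromosome 7 from 65296165 to 65371239), the gene for ZO-1 of tight junctions, was at 1.29, 2.25, 1.02, 0.503 and 0.596 CPM in heterozygous libraries and 21.8, 8.69, 14.96, 11.98 and 14.4 CPM in del/del ones (log2 3.76, SE 0.34, adjusted p = 0.000119). Ncam1, the neural cell adhesion molecule, was at 1.19, 1.47, 0.948, 0.726 and 1.24 CPM and at 5.37, 6.41, 6.72, 3.88 and 5.16 CPM (log2 2.34, SE 0.24, adjusted p = 0.000257). Neither gene had a del/del library near the heterozygous range. Cdh4, or R-cadherin, was at or below 0.349 CPM in heterozygous libraries and at 1.15 to 6.49 CPM in del/del ones (log2 4.78, SE 0.64, adjusted p = 0.000598). Pcdh17, a protocadherin outside the clusters, rose to between 0.886 and 1.55 CPM (log2 3.57, SE 0.44), and Fat3, a very large atypical cadherin, to between 1.62 and 6.92 CPM (log2 3.67, SE 0.53). Both had less than 0.41 CPM in each heterozygous library. Mllt4, or afadin, which ties adhesion molecules to actin, was not on the list and rose less (log2 1.39, SE 0.25, adjusted p = 0.0411).

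Among genes of cell signalling, the Wnt receptor genes Fzd10 and Fzd8 and the Notch ligand gene Jag1 rose from at most 0.418 CPM in any heterozygous library. Fzd10 (ENSMUSG00000081683, mm10 chromosome 5 from 128601106 to 128604093), a Frizzled receptor for Wnt, was at 0.209, 0, 0.0677, 0 and 0.170 CPM in heterozygous libraries and 1.497, 2.02, 1.78, 1.71 and 1.53 CPM in del/del ones (log2 3.93, SE 0.44, adjusted p = 0.000119). Fzd8, of the same family, rose by 2.58 on the log2 scale (SE 0.40, adjusted p = 0.00611). Jag1 (ENSMUSG00000027276, mm10 chromosome 2 from 137081456 to 137116644), a Notch ligand, was at 0.279, 0.346, 0.339, 0.112 and 0.213 CPM and at 1.39, 2.19, 2.74, 1.99 and 2.53 CPM (log2 3.05, SE 0.33, adjusted p = 0.000192). For Fzd10 and Jag1 no del/del library came near the heterozygous range. Jag1, which passed the count filter through its del/del libraries, was the only call among 40 tested genes of the Notch pathway. The median of that list was 0.0024 and lay between -0.033 and 0.041 with 1 library left out. The pathway's ligand Dll1 and target Hey1 were at 0.84 (SE 0.32) and 1.03 (SE 0.39), and the target Hes1 was at -0.36 (SE 0.16), none of them past the test. Gnai1, an inhibitory G protein subunit, rose to 4.58 to 7.38 CPM from at most 2.55 CPM (log2 2.06, SE 0.28, adjusted p = 0.00481). Ptk2, or focal adhesion kinase, rose about 2.1-fold from a level that was already 5.33 to 9.44 CPM (log2 1.07, SE 0.20, adjusted p = 0.0466).

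Some further calls are genes best known from neurons, which were put together after their values were seen. Elavl2 and Pclo were near the detection limit in heterozygous libraries. Elavl2, a neuronal RNA-binding protein, had 1 read over the heterozygous libraries and 138 over the del/del libraries, a ratio of 138 (95% counting interval 24.3 to 5470, adjusted p = 0.0466). Pclo, a scaffold protein of the presynaptic active zone, had 1 and 69 reads, a ratio of 68.8 (11.9 to 2760, adjusted p = 0.022). These intervals cover counting error only. Both genes were present in all 5 del/del libraries, at 0.464 CPM or more. Nbea, a protein of vesicle traffic, rose to between 4.22 and 6.19 CPM (log2 2.40, SE 0.32, adjusted p = 0.0038), and heterozygous library 2, at 3.03 CPM, was the nearest to that range. Gad1, which makes the transmitter GABA, rose from between 4.15 and 6.93 CPM to between 8.52 and 13.1 CPM (log2 1.06, SE 0.18, adjusted p = 0.0245). Syt13, an atypical synaptotagmin, rose by 2.09 (SE 0.39) and Cyp46a1, which turns over cholesterol in brain, by 2.16 (SE 0.36) on that scale.

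General neuronal genes were mostly absent. Of 20 pan-neuronal genes chosen after the calls were seen, 15 were under 1 CPM in all 10 libraries and 7 had 0 reads in all of them, among them Rbfox3, Nefl, Nefm, Gap43 and Elavl4. Of the 5 tested, 0 were called with edgeR, DESeq2 or voom, and 0 had an unadjusted p under 0.05. Tubb3, a neuronal tubulin, was at 0.168 to 1.04 CPM in heterozygous libraries and 0.506 to 2.15 CPM in del/del ones (log2 1.01, SE 0.53, adjusted p = 0.976).

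The remaining calls belong to no shared group. Zcchc14, a zinc finger gene, rose by 2.05 on the log2 scale (SE 0.28, adjusted p = 0.0045). It overlaps the row Gm20388. The strand setting of the counting is not given, so reads of this pair may not have been told apart. Tmtc2, of a family that adds mannose to cadherins, rose to between 2.82 and 4.60 CPM (log2 1.70, SE 0.25, adjusted p = 0.00709). Abca8b, a lipid transporter of the ABC family, rose by 2.19 (SE 0.40, adjusted p = 0.0449). The long noncoding RNA 2410018L13Rik, the only call that is not protein coding, had 2.77 (SE 0.49, adjusted p = 0.0146). The smallest calls by fold were genes that heterozygous libraries already expressed. Tspan17, a tetraspanin, was at 8.38 to 11.1 CPM and 14.98 to 18.01 CPM (log2 0.78, SE 0.12, adjusted p = 0.00945). Ifi27l2a, an interferon-induced gene of mitochondria, was at 40.2 to 55.3 CPM and 62.8 to 82.3 CPM (log2 0.65, SE 0.11, adjusted p = 0.0245).

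The strength of the calls was uneven across libraries and settings. A total of 13 of the 39 were called under each of the 25 alternative settings in which they were tested: Prox1, Peg3, Pcdhac1, Peg12, Fzd10, Tjp1, Isl1, Esrrg, Pcdh17, Jag1, Ncam1, Mkrn3 and Cdh4. In the 10 fits that left out a library, 22 kept the call every time and 17 lost it at least once. Those lost in 7 or more of the 10 were Tox3 and Phf21b (9 each), Id4 and Syt13 (8 each), and Elavl2, Mllt4, Abca8b and Ptk2 (7 each). Among the rest, Gad1 and Pclo were lost in 5, Pcdhb5 in 4, Ifi27l2a and Cyp46a1 in 6, Tbx15 and 2410018L13Rik in 2 and Lhx2 in 1. The number called higher was 23 without heterozygous library 3 and also 23 without heterozygous library 5. No log2 fold change of a call turned negative in any setting. The calls were chosen from these same libraries and their groups did not overlap, so the kept signs add no support to the calls. No single del/del library carried the set: del/del library 2 was the highest of its group for 16 of the 39 genes, library 1 for 9, library 5 for 6, library 3 for 5 and library 4 for 3. The summed level of the 39 genes was 284 to 343 CPM in del/del libraries and 85.6 to 106 CPM in heterozygous ones. In the authors' deposited table, a total of 34 autosomal genes had an adjusted p under 0.05, and all 34 were among the 40 called here. The other 6 called here were not under 0.05 there. That table comes from the same female libraries, so the overlap adds no support to the calls.

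Just past the threshold, 19 autosomal genes with an adjusted p of 0.05 to 0.1 had positive values and 0 had negative ones. These are described with no test. The first 5 by p were Magi1, Cacna1h, Vps26b, Pard3b and Epn2, chosen for their values. Magi1, a scaffold of cell junctions, was at 0 to 0.778 CPM in heterozygous libraries and 0.813 to 4.81 CPM in del/del ones (log2 2.77, SE 0.54, edgeR adjusted p = 0.0522). Cacna1h, a calcium channel, was at 12.2 to 26.7 CPM and 31.5 to 40.7 CPM (log2 0.85, SE 0.16, adjusted p = 0.0522). Vps26b, a part of the retromer complex, was at 44.5 to 54.5 CPM and 60.3 to 73.5 CPM (log2 0.45, SE 0.09, adjusted p = 0.053). On the calling side, Elavl2, Ptk2, Syt13 and Phf21b were the nearest, at adjusted p = 0.0466 each.

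No autosomal gene other than Smchd1 fell with edgeR, while DESeq2 called 7 lower, Smchd1 included. The 10 genes of smallest p on the lower side had adjusted p from 0.126 to 0.437 (edgeR quasi-likelihood test) and log2 values from -1.52 to -0.29. Among them were Ank1, Aqp1, Dmc1, Prg3, Grb10, Pkhd1l1, Slc4a1, Phf7 and Tpm2. Ank1, Aqp1 and Slc4a1 are genes of red blood cell membranes. Ank1 was at 4.46 to 6.74 CPM in heterozygous libraries and 2.15 to 3.79 CPM in del/del ones (log2 -0.89, SE 0.20), with no overlap of the groups. Aqp1 was at 8.05 to 19.02 CPM and 4.05 to 6.69 CPM (log2 -0.97, SE 0.24), also without overlap. Phf7, a histone ubiquitin ligase of the testis, was at 24.3 to 27.8 CPM and 20.2 to 21.7 CPM (log2 -0.29, SE 0.08).

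Red cell genes had mostly negative values, none of which passed the edgeR test. Of 22 tested erythroid genes, 1 was positive and 12 were lower at an unadjusted p under 0.05, against 1.22% of all autosomal genes. The median was -0.61 (-0.38 with the Malat1 covariate), 0 were called with edgeR or voom, and 3, Aqp1 and Slc4a1 among them, were called lower with DESeq2. Their summed level was 814 to 1300 CPM in heterozygous libraries and 661 to 1160 CPM in del/del ones. Their mean log2 CPM was 3.84, 3.76, 3.39, 3.05 and 2.59 in heterozygous libraries 2, 4, 5, 3 and 1, and 2.35 to 3.04 in del/del libraries, so the groups overlapped. In bulk RNA, fewer cells of a type and less RNA per cell cannot be told apart. With the erythroid mean of each library as a covariate, 16 genes were called higher, of which 15 were among the 39. The log2 fold changes of the 39 were then a median of 0.95 times those without the covariate, and their SEs 1.25 times. Markers of other cell types overlapped between the genotypes as well. The Mac1- side of the gate would remove most neutrophils and monocytes and the B220+ side most T cells, while plasmacytoid dendritic cells carry B220. For neutrophils and monocytes the sum was 1780 to 4110 CPM in heterozygous libraries and 1170 to 5830 CPM in del/del libraries, and for T and NK cells 285 to 430 CPM and 235 to 429 CPM. For plasmacytoid dendritic cells it was 3920 to 4960 CPM and 4300 to 5740 CPM, where 22 of 24 genes were positive, 4 were higher at an unadjusted p under 0.05, and 0 were called with edgeR or voom and 1 with DESeq2. The part of these cell types in the 39 calls beyond the covariate fits was not tested.

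**Figure D3:**
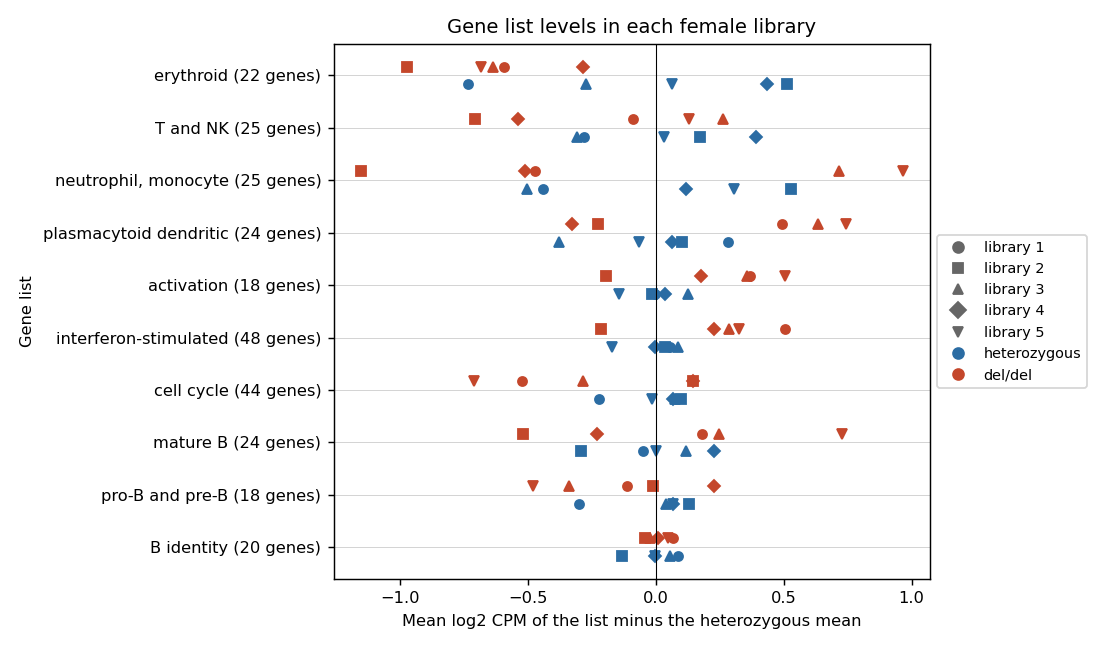
Mean log2 CPM of 10 gene lists in each female library, minus the heterozygous mean of the list, with symbol shape for the library number within its genotype. B identity genes are the tightest list, and the neutrophil and monocyte list spreads most widely among del/del libraries. The mature B, dendritic, T and NK, and cell cycle lists come next in spread. Erythroid genes lie below the heterozygous mean in every del/del library, though the groups overlap.

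Genes of B cell development and division did not give calls. All 44 tested cell cycle genes had negative values, between -0.30 and -0.06, with a median of -0.22, but 0 passed the test, 0 had an unadjusted p under 0.05, and 0 were called with DESeq2 or voom. The list mean was 6.95 to 7.27 log2 CPM in heterozygous libraries, 7.32 in del/del libraries 2 and 4, and 6.65, 6.89 and 6.46 in del/del libraries 1, 3 and 5. Without del/del library 5 the median was -0.11, and with the Malat1 covariate -0.019. Mature B genes had 23 of 24 positive values and a median of 0.15, with 0 calls (0 at an unadjusted p under 0.05, 0 with DESeq2 or voom). Without del/del library 5 that median was -0.067, and with the Malat1 covariate -0.14. For pro-B and pre-B genes 2 of 18 values were positive and the median was -0.11, with 0 calls by any of the 3 tools and 0 at an unadjusted p under 0.05. That median was -0.013 without del/del library 5 and turned positive, at 0.069, with the Malat1 covariate. Plasma cell genes gave 0 calls among 12 (median 0.073, 0 at an unadjusted p under 0.05) and activation genes 0 among 18 (median 0.14, 3 at an unadjusted p under 0.05), again by all 3 tools. With the Malat1 covariate these last medians were 0.027 and 0.017, without del/del library 5 the plasma cell median was 0.13, and without del/del library 2 the activation median was 0.28.

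Among stress and survival lists, Ifi27l2a was the only call. Interferon-stimulated genes had 45 of 48 positive values and a median of 0.17, where 48.3% of all autosomal genes were positive. At an unadjusted edgeR p under 0.05, 10 were higher and 0 lower, against 3.03% and 1.22% of all autosomal genes. DESeq2 called Ifi27l2a and 1 more of them, Oas2. Oas2, which makes the messenger that activates RNase L, was at log2 0.77 (SE 0.21, adjusted p = 0.342) and Isg15 at 0.70 (SE 0.20, adjusted p = 0.384). Without del/del library 1 the median was 0.076, and with the Malat1 covariate 0.064. Cell cycle inhibitors and p53 targets gave 0 calls among 26 with edgeR, DESeq2 or voom (5 higher at an unadjusted p under 0.05). Their median was 0.063 and turned negative, at -0.017, without del/del library 1. Cdkn2a, the inhibitor locus that Polycomb silences, was at 1.32 ± 0.513 CPM (SD, n = 5) with 1 allele and at 3.08 ± 1.17 CPM (SD, n = 5) without (log2 1.30, SE 0.36, edgeR adjusted p = 0.372). BCL2 family genes gave 0 calls among 15 by the same tools (1 higher at an unadjusted p under 0.05, median 0.11, and 0.071 without heterozygous library 1). Among 54 tested SMC and chromatin silencing genes Smchd1 was the only call, and the median was -0.091 (-0.047 without del/del library 5, -0.028 with the Malat1 covariate). Bmi1 of Polycomb was at 0.26 (SE 0.09, adjusted p = 0.782) and the DNA methyltransferase gene Dnmt3b at -0.33 (SE 0.15, adjusted p = 0.976). Steroid receptor genes gave 0 calls among 12 with edgeR or voom (1 higher at an unadjusted p under 0.05), and DESeq2 called Nr3c2, the mineralocorticoid receptor (log2 1.09, SE 0.28, edgeR adjusted p = 0.277).

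The calls were spread over the genome. They lay on 17 of 19 autosomes, with 5 each on chromosomes 2 and 7. On chromosome 7 they were 0.484% of the 1034 tested genes, against 0.298% of all autosomal genes. Only 5 calls had another call within 500 kb: Peg12, Ndn and Mkrn3 in the Snrpn cluster, and Pcdhac1 and Pcdhb5 in the protocadherin clusters. The other 34 stood alone among their neighbours, and 5 of these had no tested gene within that distance. Of the uncalled tested genes within 500 kb of a call, 45.2% were positive with a median log2 of -0.013, against 48.1% of all uncalled autosomal genes. At an unadjusted p under 0.05, 13 of these neighbours (7.83%) were higher, against 2.74% of all uncalled genes. Pcdhb19 and Pcdhb22 beside Pcdhb5, Dmrt3 beside Dmrt2, Ifi27l1 beside Ifi27l2a and Abca5 beside Abca8b are relatives of the called gene. The others, which make up the larger part, were Fam189a1 beside Tjp1, Gpr133 beside Fzd10, Ttc12 beside Ncam1 and Unc5a beside Tspan17. To these are added Unc79 and Ppp4r4 beside Ifi27l2a, Ptpdc1 beside Id4 and Map2k6 beside Abca8b. The genes that rose were long, with a median span of 56.3 kb against 20.8 kb for all autosomal genes tested and 14.7 kb for those under 5 CPM. A span over 100 kb was held by 13 of the 39, by 11% of autosomal genes tested and by 12.4% of those under 5 CPM.

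The male libraries give the same contrast in animals that the female comparison did not use, and 1 male library stands apart. For 16 of the 20 pan-neuronal genes chosen after the calls were seen, male heterozygous library 2 was above each of the other 7 male libraries, and for 4 (Bsn, Nefh, Camk2a and Eno2) it was not. Tubb3 was at 30.2 CPM there, against at most 1.97 CPM in the other 3 male heterozygous libraries and 4.35 CPM in male del/del libraries. Stmn2 was at 9.39 CPM, against at most 0.308 and 1.02 CPM, and Elavl3 at 8.06 CPM, against at most 0.348 and 0.798 CPM. Many genes of the female set were raised in that library too. Ndn was at 0.103, 11.4, 0.29 and 0.313 CPM in male heterozygous libraries 1 to 4 and at 2.46, 2.40, 2.93 and 2.26 CPM in male del/del libraries. Id4 was at 0, 4.55, 0 and 0 CPM in the heterozygous and 0.651, 1.16, 0.931 and 0.411 CPM in the del/del ones. Elavl2 was at 0, 3.07, 0.116 and 0 CPM and at 0.465, 1.07, 0.665 and 0.821 CPM. For each of these genes library 2 alone kept the male groups from separating. Of the 39 female calls, 28 had male heterozygous library 2 above the other 3 male heterozygous libraries, against 26.2% of autosomal genes, and 12 had it above every male del/del library too, against 14.9%. In female libraries Tubb3 was at most 2.15 CPM, Stmn2 at most 0.206 CPM and Elavl3 at most 0.348 CPM.

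The male values of the female calls therefore depend on that library. With all 8 male libraries, 35 of the 39 were tested, 30 had positive values, 7 were called higher (the male background was 0.115% of autosomal genes) and 17 had every del/del library above every heterozygous one (background 1.38%). The 7 were Prox1, Mkrn3, Peg12, Tjp1, Isl1, Pcdhac1 and Dmrt2, which are 17.9% of the female and 46.7% of the 15 male higher calls. Without male heterozygous library 2, an alternative chosen after seeing the data, 34 of 35 were positive, 11 were called (background 0.138%) and 31 separated (background 2.52%). The 11 are 28.2% of the female and 61.1% of the 18 male higher calls. The median male log2 fold change of the 35 genes went from 1.16 to 2.27. Peg3 went from 3.37 (SE 0.58, edgeR adjusted p = 0.0973) to 5.69 (SE 0.46, adjusted p = 0.00131), and Ndn from -0.54 (SE 0.89, adjusted p = 1) to 3.29 (SE 0.35, adjusted p = 0.00659). Fzd10 went from 1.57 (SE 0.62, adjusted p = 1) to 4.26 (SE 0.59, adjusted p = 0.0122). Isl1 and Dmrt2 were called with library 2 and not without it, though their values did not shrink: Isl1 went from 2.91 (SE 0.43) to 2.98 (SE 0.52, adjusted p = 0.101) and Dmrt2 from 2.13 (SE 0.31) to 2.27 (SE 0.38, adjusted p = 0.0889). Ifi27l2a was the 1 gene that was not positive without it, at -0.06 (SE 0.45).

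**Figure D4:**
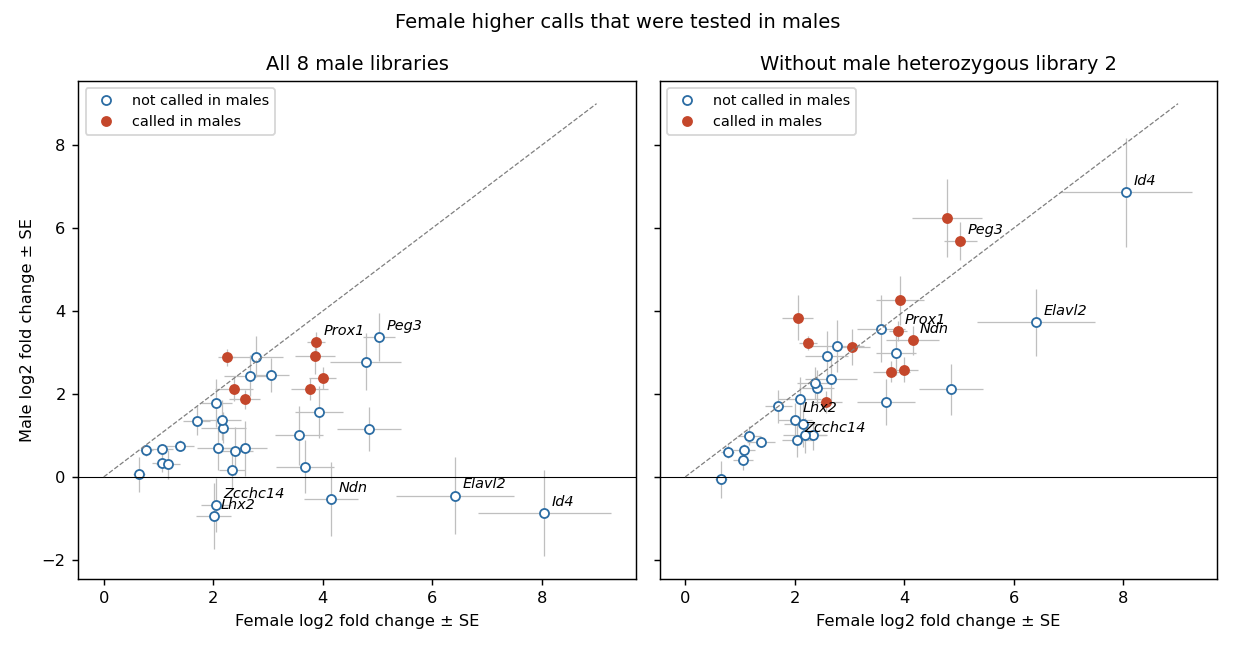
Male against female log2 fold change, each with its SE, for the 35 female higher calls that were tested in males, with all 8 male libraries (left) and without male heterozygous library 2 (right). The dashed line marks equal values, and Ndn, Id4, Elavl2, Lhx2 and Zcchc14 lie below 0 on the left and above 0 on the right.

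The test of the difference between the sexes gave 0 autosomal calls over 13566 genes with edgeR, with 1.5% at an unadjusted p under 0.05, and 2 calls with DESeq2, Id4 and AC214054.1. Of the 39 female calls, 20 had an unadjusted p under 0.05 for this difference with all 18 libraries and 5 without male heterozygous library 2, when the background was 0.999%. Those genes were chosen for their female values, so larger female values are partly set by the choice. Without that library 1 autosomal gene was called for the difference, AC214054.1 (log2 -4.13, adjusted p = 0.0439), which was not a female call. Peg12 was the gene of the female set with the smallest p in that edgeR fit, at -0.99 (female minus male, adjusted p = 1), so its value was higher in males. With edgeR a difference in response between the sexes was thus not shown for any of the 39 genes.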

How the data were processed

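Females and males have separate tables of raw counts for each gene, deposited with a column for every library, as the file headers show. TopHat, Trim Galore, FastQC, bcl2fastq and edgeR 3.32.1 are named in the submitters' processing notes, with mm10 and GRCm38 as builds. Which program counted the reads, with which annotation release and strand, is not given in the sources used here. The authors' deposited table of log2 fold changes and p-values for females is quoted only where it is named. Its F statistic, a score, and the 4 columns of mean signal per genotype in the deposited count tables were not used. Rows without a gene identifier took 0.0656% to 0.0839% of a library.

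Counts were tested in R 4.3.3 with edgeR 4.0.16: filterByExpr (minimum count 10, minimum total count 15), TMM factors, and the quasi-likelihood test in its newer form (legacy = FALSE), del/del minus heterozygous. A gene low in heterozygous libraries can pass this filter through its del/del libraries alone. The share of tested list members that rose is therefore partly set by the filter. P-values were adjusted by Benjamini-Hochberg over all 13501 genes tested, X-linked genes included, and a gene was called under 0.05. The SE is the log2 fold change over the square root of F. Males (4 against 4) were fitted alike, and the difference between sexes as an interaction over 18 libraries. DESeq2 1.42.0 and limma-voom (limma 3.58.1) were alternatives. P-values measure the spread between animals. On simulated female counts of 13501 genes with 200 changed, 81% of those at log2 1 and 97% at log2 2 were recovered, with 8 false calls among 186. Those counts took their spread from level alone, and the changed genes were picked at random over all levels. In the data 28 of the 39 higher calls averaged under 5 CPM, against 21.9% of autosomal genes tested. The simulated rates therefore do not give the recovery or false calls among such low genes.

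Exon lengths and biotypes came from GENCODE M21, which matched 98.6% of autosomal tested genes. The promoter table was matched by symbol, strand and a start within 5000 bases. Members and lists were chosen with earlier results of these data known. Named genes are Smchd1, each autosomal call, the 10 uncalled lower genes of smallest p, up to 4 members of each list by p, up to 6 markers per cell type list by level, and up to 10 calls of the difference between sexes. A few genes that this rule names are not reported here. Others named were chosen after their values were seen. Animal numbers gave pairs for a block that the labels do not state.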

Additional observations from a re-analysis of the deposited data

Results flagged for a closer look

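In 39 of the 40 called genes, each genotype's 5 CPM values were checked for a library whose gap to its nearest neighbour took more than 0.71 of the group's range. This marked 11 of 78 groups, all at the high end. Id4 in heterozygous libraries had no range and could not be marked. The limit marks about 1 in 20 groups of normally distributed values. CPM from few reads need not be so distributed, so no excess over chance can be read from the 11. In del/del libraries the high values were Peg3 in library 5 (23.4 CPM), Ndn in library 1 (4.03 CPM), Smchd1 in library 4 (174 CPM), Tmtc2 in library 3 (4.6 CPM) and Pcdhb5 in library 2 (2.62 CPM). In heterozygous libraries they were Pcdhac1 in library 3 (1.05 CPM), Cdh4 in library 1 (0.349 CPM), Nbea in library 2 (3.03 CPM) and Tbx15 in library 1 (0.279 CPM). Pclo and Elavl2 in heterozygous library 3 (0.0339 CPM each) are single reads beside libraries with 0 reads. No library was marked for more than 3 of the genes, and the calls of Pcdhb5, Pclo, Elavl2 and Tbx15 are among those lost in some fits that left out a library.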

How the results depend on the processing

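The number of autosomal genes called higher was 39, and it was 40 with RLE factors, 42 with upper-quartile factors, 41 with robust estimates, 31 with voom, 32 with the older quasi-likelihood form, 42 with autosomal genes alone, 45 without a filter, 41 with the plasmacytoid dendritic covariate, 40 with Malat1 and 48 with the neutrophil and monocyte covariate, which was chosen after seeing the data. It moved further with DESeq2 (96), all 18 libraries in 1 fit (70, of which 31 are among the 39), a filter of 1 CPM in 5 libraries (25, with 29 of the 39 tested), the erythroid covariate (16) and the replicate block. Leaving out each library gave 23 to 46. The cause of these moves was not tested, apart from the genes that the CPM filter removed. The number called lower was 7 with DESeq2, 3 with 18 libraries, 2 without a filter, 2 with each of the plasmacytoid dendritic and the neutrophil and monocyte covariates, and 1 to 2 with a library left out. The difference between sexes gave 2 calls with DESeq2 and 0 to 1 with a library left out. Every one of the 39 log2 fold changes stayed positive in each setting in which the gene was tested. These genes were chosen for their values in the same female libraries, so the kept signs add no support to the calls.

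Replicate block: the labels state no pairs, so the main fit had no block. Libraries paired by nearest animal number had correlations of 0.28, 0.0994, -0.0421, 0.156 and 0.179 between their deviations from the group means. With the block 24 genes were called higher, 22 of them among the 39, and 1 lower, with a median log2 fold change 0.997 times that without it. In 4 of 5 pairs the del/del library, and in 3 of 5 the heterozygous library, correlated best with its own number. Whether near numbers mark related animals was not tested, and the main fit does not allow for it.

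Depth limits the lowest genes most: at 0.5 to 1 CPM the median SE was 0.43 on the log2 scale, and a count of 0 over the heterozygous libraries allows up to 0.027 CPM.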

Other observations

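Some uncalled genes varied widely among del/del libraries. Gm16028 (chromosome 1) was at 10.9, 1.77, 10.9, 3.75 and 11.1 CPM in del/del libraries 1 to 5 and at 0.976, 2.94, 1.29, 0.726 and 0.298 CPM in heterozygous ones (log2 2.80, SE 0.57, edgeR adjusted p = 0.0743). Library 2 kept the groups from separating. In males it was called, with 3.39 (SE 0.39, adjusted p = 0.0107). Robo1, a guidance receptor of axons, was at 3.56, 1.01, 5.22, 1.90 and 4.73 CPM and at 0.558, 0, 0.169, 1.12 and 0 CPM (log2 3.14, SE 0.64, adjusted p = 0.0708), again with an overlap at del/del library 2. Del/del libraries 2 and 4 are also the 2 with the highest cell cycle means, 7.32 log2 CPM each, and whether these features share a source was not tested.

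Cacna1h and Epn2 had close values in both sexes although neither was called in females. Cacna1h was at log2 0.85 (SE 0.16) in females and 1.21 (SE 0.18, adjusted p = 0.0439) in males, where it was called, and Epn2 at 0.77 (SE 0.15) and 0.83 (SE 0.14, adjusted p = 0.0973). For these 2 genes the del/del libraries of each sex were all higher than its heterozygous ones.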
